A study of Mus musculus with 13 samples.

Results

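Some regions of macrophage chromatin carried a high level of H3K27ac in every library, and their mean level was nearly the same in every group. H3K27ac is the acetylation of histone H3 at lysine 27. These constitutive strong regions were chosen from the deposited values by 3 conditions. A region had to be narrower than 20000 bp, the log2 of its value had to reach at least 7 in each of the 12 libraries, and its highest and lowest group mean on the log2(value + 1) scale had to lie less than 0.5 apart. Of 40691 regions, 1290 met all conditions, which is 3.17%. The level and the distance between group means therefore chose the regions, and both are given here as a description with no test. Of 4875 regions that were strong in all libraries and narrower than the limit, 1835 just missed the last condition, with group means 0.5 to 1 apart. They are called the near-steady regions below. For contrast, 4767 regions narrower than the same limit, with all 3 libraries of at least 1 group strong and group means 2 or more log2 units apart, are called the moving regions.

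The cells were bone marrow-derived macrophages, grown for 5 days from mouse marrow precursors in medium conditioned with M-CSF, the growth factor of the macrophage lineage. All animals had the genotype IL10-/-RAG2-/- on the strain 129S6/SvEvTac, so the cells of every group, untreated ones included, lacked Il10, and mature T and B cells do not form in such animals. Each group had 3 libraries. Continuous IL-10 means LPS at 1 ng/mL together with IL-10 at 1 ng/mL for 195 min, late IL-10 means 195 min of LPS with IL-10 over the final 30 min, LPS means this dose of LPS alone for 195 min, and untreated cells had neither. The labels give no separate concentration for late IL-10.

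H3K27ac is placed by acetyltransferases such as p300 and CBP, removed by histone deacetylases and read by bromodomain proteins. It marks active promoters and enhancers. In macrophages, LPS acts through Toll-like receptor 4, NF-kB and interferon signalling on enhancers and promoters of inflammatory genes, which gain acetylation, and IL-10 acts through STAT3 to restrain many of these genes. Promoters of genes that nearly all cells use are typically rich in CpG dinucleotides and often hold motifs of ETS factors, NRF1, YY1 and SP/KLF factors.

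The reads recovered from the deposited values came to between 5149730 and 26922552 per library over all regions, with a median of 18 to 89 reads per region. In the constitutive strong regions the median lay between 158 reads in LPS replicate 1 and 1528.5 reads in untreated replicate 3, and no value rested on fewer than 66 reads. In untreated cells, 34 of 35 macrophage identity genes lay over a region whose log2 value was at least 7 in all 3 libraries. The same held for 1 of 10 T cell, 2 of 8 B cell, 5 of 12 neutrophil, 7 of 10 dendritic cell, 1 of 8 fibroblast and 0 of 8 erythroid and mast cell marker genes. Over all 21900 protein-coding genes this share was 38.1%. Neutrophil markers, at 41.7%, and dendritic cell markers, at 70%, were not below it. None of these marker genes of other cells lay over a constitutive strong region, against 7.37% of all protein-coding genes. Only 1 of the 35 macrophage identity genes did, so such overlap does not separate macrophages from other cells.

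Promoters that lay inside constitutive strong regions are shown for 6 genes that the results below turn on. Each is the RefSeq window on GRCm38.p6, from 250 bases before to 50 after the annotated start, read 5′ to 3′ on the strand of the gene. Capitals mark matches to the 12 motifs searched, which are spelled out below.
Brd2 promoter, chr17:34122558-34122857, minus strand: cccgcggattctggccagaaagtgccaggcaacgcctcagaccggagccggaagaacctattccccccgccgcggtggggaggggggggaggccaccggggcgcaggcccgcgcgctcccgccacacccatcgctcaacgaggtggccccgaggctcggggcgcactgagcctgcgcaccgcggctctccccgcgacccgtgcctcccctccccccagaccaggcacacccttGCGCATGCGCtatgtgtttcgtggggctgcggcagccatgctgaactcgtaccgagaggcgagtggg
Grn promoter, chr11:102430257-102430556, plus strand: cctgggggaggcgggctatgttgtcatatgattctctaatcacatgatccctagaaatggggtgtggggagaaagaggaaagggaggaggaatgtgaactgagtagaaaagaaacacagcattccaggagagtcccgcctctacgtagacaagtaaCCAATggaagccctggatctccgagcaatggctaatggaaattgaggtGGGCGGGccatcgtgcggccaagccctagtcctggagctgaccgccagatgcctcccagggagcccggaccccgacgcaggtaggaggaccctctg
Eef1a1 promoter, chr9:78481675-78481974, minus strand: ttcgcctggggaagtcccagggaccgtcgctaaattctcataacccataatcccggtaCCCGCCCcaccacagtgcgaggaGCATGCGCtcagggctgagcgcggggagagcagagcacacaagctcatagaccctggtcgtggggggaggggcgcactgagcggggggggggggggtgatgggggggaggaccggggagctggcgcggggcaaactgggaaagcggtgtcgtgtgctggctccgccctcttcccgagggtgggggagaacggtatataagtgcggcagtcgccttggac
Rpl18 promoter, chr7:45717821-45718120, plus strand: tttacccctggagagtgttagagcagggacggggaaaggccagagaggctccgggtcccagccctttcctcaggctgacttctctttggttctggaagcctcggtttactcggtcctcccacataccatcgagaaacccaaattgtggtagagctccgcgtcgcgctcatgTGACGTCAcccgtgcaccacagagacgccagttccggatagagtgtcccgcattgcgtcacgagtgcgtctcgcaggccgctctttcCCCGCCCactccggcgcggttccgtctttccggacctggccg
Uqcrh promoter, chr4:116075021-116075320, minus strand: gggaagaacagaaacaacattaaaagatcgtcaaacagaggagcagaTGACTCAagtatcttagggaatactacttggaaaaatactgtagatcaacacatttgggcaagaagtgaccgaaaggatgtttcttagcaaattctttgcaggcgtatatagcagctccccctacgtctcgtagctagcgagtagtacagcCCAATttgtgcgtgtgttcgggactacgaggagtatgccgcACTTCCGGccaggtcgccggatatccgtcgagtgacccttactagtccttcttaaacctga
Hnrnpu promoter, chr1:178337766-178338065, minus strand: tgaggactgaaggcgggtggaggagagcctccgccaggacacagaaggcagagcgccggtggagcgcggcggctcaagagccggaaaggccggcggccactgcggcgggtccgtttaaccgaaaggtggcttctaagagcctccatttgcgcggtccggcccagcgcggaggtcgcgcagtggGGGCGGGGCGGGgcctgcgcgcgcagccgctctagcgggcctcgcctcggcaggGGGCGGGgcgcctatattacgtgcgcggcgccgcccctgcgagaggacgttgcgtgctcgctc
The Brd2 window, 1 of 3 for this gene, holds the NRF1 letters on both strands in a single palindromic run close to the start. The Eef1a1 window holds an NRF1 and an SP/KLF match, and the Rpl18 window a CRE and an SP/KLF match. The Uqcrh window holds an ETS match near the start together with an NFY and an AP-1 match. The Hnrnpu window holds SP/KLF matches that overlap each other, and the Grn window holds an NFY and an SP/KLF match.

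Mature microRNAs encoded inside constitutive strong regions are shown for 4 hairpins, because 2 of the 10 strongest regions contain such a gene. Capitals mark the seed, bases 2 to 8.
miR-142a-3p, chr11:87756903-87756925, plus strand: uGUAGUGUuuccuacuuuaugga
miR-142a-5p, chr11:87756867-87756887, plus strand: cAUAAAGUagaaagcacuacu
miR-22-3p, chr11:75463772-75463793, plus strand: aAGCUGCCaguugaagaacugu
miR-22-5p, chr11:75463734-75463755, plus strand: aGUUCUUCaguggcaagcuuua
miR-15b-5p, chr3:69009775-69009796, plus strand: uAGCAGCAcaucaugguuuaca
miR-16-5p, chr3:69009918-69009939, plus strand: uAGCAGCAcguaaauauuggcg
The 15b and 16 microRNAs share their seed, and their hairpins Mir15b and Mir16-2 lie in the same region, over Smc4 and Ift80. miR-142 is known as a microRNA of blood cells, and miR-22 is broadly expressed. In all, 20 constitutive strong regions, 1.55% of them, overlapped 25 annotated hairpins. The share was 1.25% in near-steady, 0.650% in moving and 0.528% in all regions. Others in constitutive strong regions were Mir191 and Mir425 with Dalrd3, Mir423 with Nsrp1, Mir574 with Fam114a1 and Tlr6, and Mir10a with Hoxb3 and Hoxb4.

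The constitutive strong regions had a median width of 4562 bp, from 1480 to 19777 bp, against 3062 bp for all regions. Their mean log2 level ran between 7.32 and 11.58, with a median of 8.66. Per kb of width, the median value was 97.7, against 82.7 in near-steady, 26.7 in moving and 14.9 in all regions. The distance between their highest and lowest group mean had a median of 0.36 log2 units, down to 0.020. The conditions on level and distance fix much of this, and width was limited as well.

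**Figure D1:**
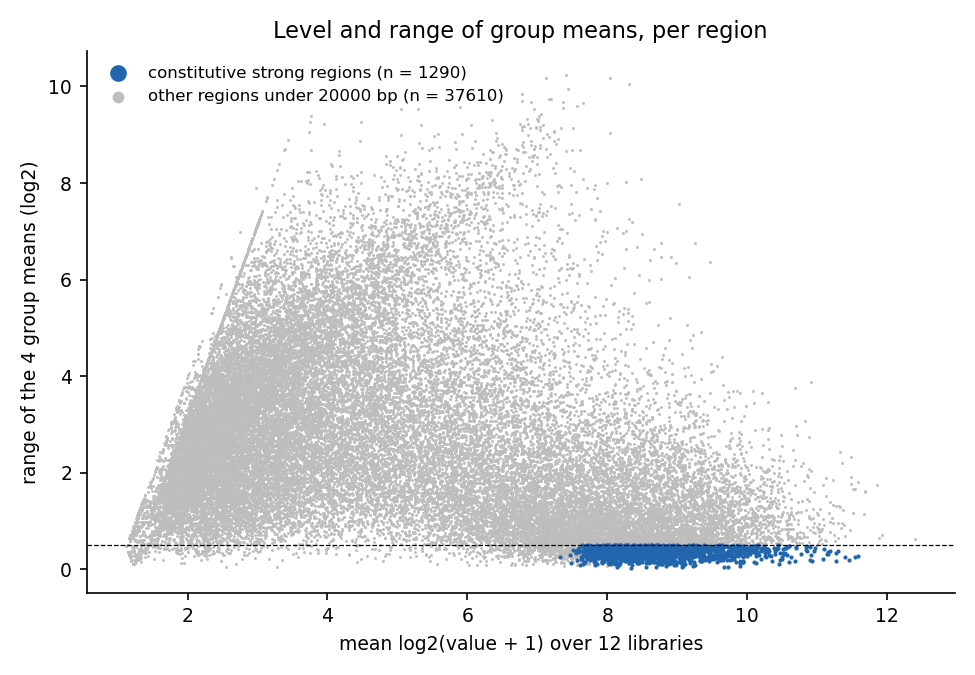
Each point is a region narrower than 20000 bp. The x axis is the mean log2(value + 1) over 12 libraries, the y axis the distance between the highest and lowest of the 4 group means in log2 units, and the dashed line is the limit of 0.5. The 1290 constitutive strong regions (blue) lie below the line at mean levels of 7.32 or more, and the other regions (grey) fill the rest, up to more than 10 log2 units.

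The strongest constitutive region covered Brd2, which encodes a bromodomain reader of acetylated histones, and H2-DMa, which encodes a peptide-loading protein of MHC class II. It lies at chr17:34115431-34131198. Its deposited values were 2430, 3405 and 4114 in the continuous IL-10 group and 2619, 2295 and 4194 in the late IL-10 group. They were 2509, 3015 and 4990 with LPS and 2379, 2046 and 4341 in untreated cells. Replicate 3 was the highest of every group, and the groups overlapped.

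Next came the region at Zc3h4, a zinc finger gene, at chr7:16397668-16408770. Its values were 2406, 3256 and 3190 with continuous IL-10, 2878, 2390 and 3568 with late IL-10, 2617, 3060 and 4532 with LPS, and 2185, 2438 and 4052 in untreated cells. The groups overlapped here too, with replicate 3 highest in 3 of 4 groups. Per kb, this region stood at 274, the highest level of the 10 strongest, and the Brd2 region at 203.

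P2rx4 encodes an ATP-gated cation channel of macrophages and microglia. The region at chr5:122696163-122711163 over this gene had values of 3119, 2613 and 2641 in the continuous IL-10 group and 3173, 3094 and 2887 in the late IL-10 group. The values were 2774, 2988 and 2491 with LPS and 2445, 2524 and 3115 in untreated cells. Its highest library was 1.30 times its lowest, the smallest ratio of any constitutive strong region, and no replicate stood apart.

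The region over Grn, the gene of progranulin, a lysosomal and secreted protein of macrophages, was nearly as even. At chr11:102421726-102435855 it had 2667, 2205 and 2486 in the continuous IL-10 group and 2747, 2227 and 2373 in the late IL-10 group. It had 2332, 2380 and 2333 with LPS and 2313, 2506 and 3219 in untreated cells, with a ratio of highest to lowest library of 1.46. Zfp51, a zinc finger gene, was the other of 3 regions with a ratio below 1.5, at 1.43 and a much lower level, between 179.6 and 256.2 in the 12 libraries.

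Both microRNA regions among the strongest had similar levels. The region with Mir142, over the neighbouring gene Tspoap1, at chr11:87746027-87760005, had 3273, 2215 and 2962 in the continuous IL-10 group and 2071, 1944 and 2486 in the late IL-10 group. It had 1891, 2497 and 3277 with LPS and 2028, 2255 and 4137 in untreated cells, so the groups overlapped. The region with Mir22, over Wdr81, at chr11:75449141-75465614, ranged between 1847 in untreated replicate 2 and 2966 in untreated replicate 3. The 15b and 16 region at chr3:69003771-69022005 was lower, at 70.1 per kb against 185 per kb for the Mir142 region and 152 per kb for the Mir22 region.

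The other regions of the 10 strongest covered the predicted gene Gm34296, Hmox2, which encodes the constitutive heme oxygenase, with Nmral1, Clic1, a chloride intracellular channel gene, with Msh5, and Igsf6, a myeloid immunoglobulin superfamily gene, with Mettl9. At Hmox2 the values were 2163, 1780 and 1855 with continuous IL-10, 2377, 2954 and 2156 with late IL-10, 2318, 2964 and 2291 with LPS, and 2102, 2592 and 2805 in untreated cells. All continuous IL-10 libraries at Hmox2 lay below all LPS libraries. At Clic1 all libraries lay between 1896 and 2967. The late IL-10 libraries there, at 2082, 1896 and 2076, lay below all libraries of the LPS and continuous IL-10 groups. Gm34296 had 144 per kb, Hmox2 133, Clic1 136 and Igsf6 174 per kb, levels within 1.5 times of each other.

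Group means closest together belonged to Dcaf10, a substrate adaptor gene of a ubiquitin ligase, with a distance of 0.020 log2 units. The libraries themselves were not close. They had 265, 305 and 416 with continuous IL-10, 326, 258 and 407 with late IL-10, 163, 289 and 716 with LPS, and 288, 199 and 571 in untreated cells. Elf2, an ETS factor gene, had a distance of 0.039 and libraries between 283 and 1234, both with LPS. Kat2b, an acetyltransferase gene, had 433, 484 and 320 with continuous IL-10, 653, 400 and 269 with late IL-10, 626, 521 and 209 with LPS, and 415, 417 and 429 in untreated cells. There replicate 3 was the lowest of each treated group. Hnrnpd, an RNA-binding protein gene, and Herc4, a ubiquitin ligase gene, were tighter, with libraries between 602 and 1011 and between 654 and 1131.

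Regions at the edge of each condition looked much alike on both sides. Just within the limit on the distance were Sertad2, Cdipt, the phosphatidylinositol synthase gene, and Zdhhc4, at 0.4999, 0.4998 and 0.4996. Just beyond it were the regions over Cert1 and Polk at 0.50004, over Snrpg, a core spliceosome gene, at 0.5005, and over Atp5a1 at 0.5007. At the limit on the lowest value, Fut8, a fucosyltransferase gene, and Rybp, a Polycomb component gene, lay within at 128.1 each, in continuous IL-10 replicate 1, and Atf7ip at 128.5. Zkscan3 and Rpl8 fell outside, at 127.9 each in LPS replicate 1, and Rbm22 fell outside at 127.96 in untreated replicate 1. By width, Lrsam1 at 19777 bp, Stk17b at 19653 bp and Parp8 at 19547 bp were within, and Efhd2 at 20073 bp, an unannotated region at 21377 bp and Antxr1 at 22090 bp were not.

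Most constitutive strong regions overlapped a promoter. They lay over a protein-coding gene in 1231 of 1290 cases, or 95.4%, against 90.9% of near-steady, 64.7% of moving and 67.7% of all regions. Of them, 1250 lay on chromosomes with promoter windows. Of these, 986 overlapped at least 1 window, or 78.9% (95% exact binomial interval 76.5 to 81.1, for counting error only). The share was 68.2% in near-steady, 17.4% in moving and 22.8% in all regions. A divergent pair, meaning starts on opposite strands within 1000 bp of each other, lay in 14.3% of constitutive strong, 7.67% of near-steady, 0.757% of moving and 1.79% of all regions. Position was not used to choose the regions, but level was, and the part of level in these shares was not tested.

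The promoter windows in constitutive strong regions were GC-rich. Median GC content was 62.3%, against 62.7% in near-steady regions, 58.3% in moving regions, 61.0% in the 12017 windows that lay in any H3K27ac region and 56.3% over all 21263 windows. The observed over expected ratio of CpG was 0.86 in constitutive strong, 0.84 in near-steady and 0.63 in moving regions, 0.77 for windows in any region and 0.57 over all windows. The printed windows span much of this range, with GC at 46.7% for Uqcrh, 56.3% for Grn, 61.3% for Rpl18, 66.7% for Eef1a1, 72.3% for Brd2 and 72.7% for Hnrnpu. Grn, the macrophage gene among them, had a CpG ratio of 0.47, below the median of all windows, and Hnrnpu had 1.06.

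Motifs were counted as exact letters on either strand. The ETS letters CCGGAAGT occurred in 14.2% of the 1518 windows in constitutive strong regions, 12.2% in near-steady regions, 2.23% in moving regions and 5.15% of all windows. The YY1 letters AAGATGGCG occurred in 5.14%, against 4.10%, 0.774% and 1.83% in the same order. The NRF1 letters GCGCATGC occurred in 7.18%, against 7.73%, 2.42% and 3.52%. Near-steady and constitutive strong regions thus had similar shares of these motifs, and windows in moving regions had lower ones. The 12017 windows that lay in any region at all held the ETS letters in 8.55%, the YY1 letters in 3.08% and the NRF1 letters in 5.39%.

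Other motifs differed less or the other way. The SP/KLF letters GGGCGGG occurred in 47.9% of windows in constitutive strong regions, 40.5% in moving regions and 47.0% of windows in any region, so the share was close to that of all promoters with an H3K27ac region. The E-box CACGTG had shares of 11.4% in constitutive strong and 8.91% in moving regions, and CRE, TGACGTCA, had 3.16% and 2.13%. The ISRE letters GAAANNGAA, bound by interferon regulatory factors, occurred in 6.32% of windows in constitutive strong and 11.6% in moving regions. AP-1, TGANTCA, had 4.48% and 8.03%, NF-kB, GGGANTTTC, 0.922% and 2.13%. The TATA box letters TATAAA occurred in 6.32% and 9.49%. NFY, CCAAT, had 33.5% and 41.1%, and the PU.1 letters GAGGAAGT, which share 6 bases with the ETS letters, 3.49% and 3.87%. Over all windows these shares were 33.9% for SP/KLF, 7.84% for the E-box, 2.23% for CRE, 8.15% for ISRE, 6.99% for AP-1, 1.08% for NF-kB, 12.6% for TATA, 38.2% for NFY and 3.13% for PU.1. Windows in any region held the E-box in 10.1%, CRE in 3.20%, ISRE in 7.41% and AP-1 in 5.03%. They held NF-kB in 1.02%, TATA in 7.06%, NFY in 37.9% and PU.1 in 3.37%. Like that of SP/KLF, most of these shares in constitutive strong regions were close to this background. For ISRE, AP-1, NF-kB and TATA, it was the windows in moving regions that lay further from it. A match describes the letters only. Windows of different GC content hold GC-rich and AT-rich letters at different rates by composition, and its part in these shares was not tested.

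**Figure D2:**
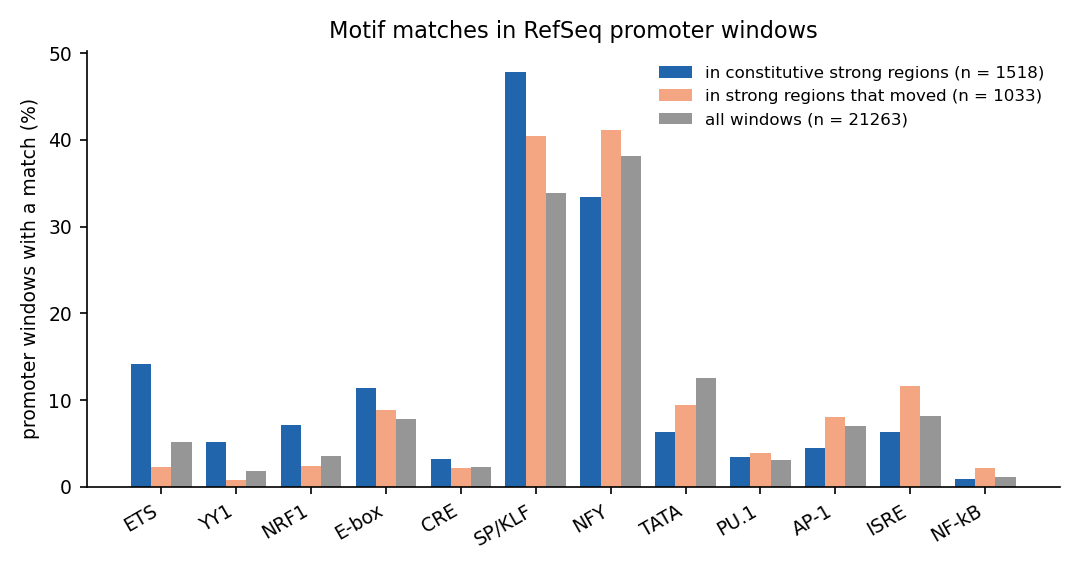
Bars give the percent of 300-base RefSeq promoter windows with at least 1 match to each motif, on either strand. Blue bars are the 1518 windows in constitutive strong regions, orange bars the 1033 windows in moving regions and grey bars all 21263 windows. ETS, YY1 and NRF1 are highest in blue, at 14.2%, 5.14% and 7.18%, and ISRE, AP-1 and NF-kB are highest in orange.

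By function, the share of a gene list that lay over constitutive strong regions was highest for splicing genes, or for acetylation genes when replicate 3 was left out, and 0 for the NF-kB, interferon and IL-10 pathway lists, with no test of the differences. Of 44 splicing genes 17 lay over such a region, or 38.6%, among them Hnrnpu, Hnrnpc and Hnrnpa2b1 of the nuclear RNA-binding proteins and Sf3b1 of the branch point complex. Of 79 ribosomal protein genes, 28 or 35.4% did, including Rpl18, Rpl19, Rps18 and Rps27a. Over all 21900 protein-coding genes the count was 1614, or 7.37%, and 2614, or 11.9%, lay over a moving region. Strong genes are more likely to be counted, so the share was also taken among genes over a region with a log2 value of at least 7 in all 3 untreated libraries. It was then 44.7% of 38 splicing, 42.4% of 66 ribosomal protein, 39.1% of 23 acetylation, 37.5% of 24 proteasome, 36.6% of 41 respiratory chain and 36% of 50 RNA polymerase II factor genes, against 19.4% of 8335 protein-coding genes. It was close to that background for common reference genes, at 18.75% of 16, and for LPS sensing genes, at 17.4% of 23. It was 12% of 25 macrophage transcription factor, 6.25% of 16 cytokine and 2.94% of 34 macrophage identity genes. Genes strong in untreated cells were counted over regions of any width, while constitutive strong and moving regions were narrower than 20000 bp. Of 6274 regions strong in all 12 libraries at any width, 4875 were narrower than that. Genes strong only in wider regions could thus not count, and the part of width in these shares was not tested.

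Hnrnpu, which encodes a nuclear matrix and RNA-binding protein, had 1133, 1448 and 1607 in the continuous IL-10 group and 1006, 1084 and 1546 in the late IL-10 group at chr1:178326342-178344336. It had 1078, 1245 and 1919 with LPS and 1229, 1398 and 1908 in untreated cells. Replicate 3 was the highest library in each group. Rpl18, of the large ribosomal subunit, shares its region at chr7:45712974-45719828 with the sphingosine kinase gene Sphk2, and the 2 cannot be separated. Its values were 1491, 1179 and 1248 with continuous IL-10, 743, 1442 and 922 with late IL-10, 787, 1376 and 1373 with LPS, and 988, 1169 and 1907 in untreated cells. No group stood clear of another at either gene.

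Respiratory chain and proteasome genes followed. Of 57 respiratory chain genes, 15 or 26.3% lay over a constitutive strong region, and none lay over a moving region. Uqcrh, a subunit gene of complex III, at chr4:116074172-116078332, had 604, 854 and 1129 with continuous IL-10, 597, 572 and 860 with late IL-10, 681, 652 and 1560 with LPS, and 537, 446 and 1142 in untreated cells. The others named by level were Ndufa4, Ndufv2 and Ndufs1, at 158, 47.7 and 133 per kb, against 193 per kb for Uqcrh. Of 31 proteasome genes, 9 or 29.0% did, led by Psma7 at 159 per kb, Psma3 at 110, Psmb1 at 93.5 and Psmc2 at 105 per kb. Psmb1, a core subunit gene, and Tbp, the TATA-binding protein gene, share a region, so they count once each for the same values.

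Of 72 genes for general factors of RNA polymerase II, 18 or 25% did, among them Taf9, Taf11, Gtf2h1 and Ccnt1, and 8 lay over a moving region, or 11.1%, near the 11.9% of all genes. Ccnt1 encodes the cyclin of P-TEFb, which releases paused polymerase. At chr15:98561737-98572121 it had 695, 755 and 785 with continuous IL-10, 548, 663 and 633 with late IL-10, 539, 600 and 709 with LPS, and 552, 442 and 778 in untreated cells. Of 18 common reference genes, 3 did, namely Eef1a1, Tbp and Hprt. Eef1a1, the translation elongation factor gene, at chr9:78479427-78483695, had 1084, 995 and 995 with continuous IL-10, 692, 717 and 785 with late IL-10, 618, 943 and 1548 with LPS, and 703, 634 and 1409 in untreated cells. At 217 per kb it was above Tbp at 93.5 and Hprt at 59.3 per kb, and its distance between group means, 0.49, was close to the limit. The other 15 reference genes had no constitutive strong region, although 16 of the 18 were strong in untreated cells, counted over regions of any width.

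Genes for the enzymes and readers of acetylation itself stood at 9 of 26, or 34.6%. They were the acetyltransferase genes Ep300, Kat2b, Kat6a and Kat7, the deacetylase genes Hdac2 and Sirt1, the corepressor gene Ncor1, the demethylase gene Kdm6a and the reader gene Brd2. Of the 26, 7 or 26.9% lay over a moving region, Kat6a and Kat7 among them. Ep300, the p300 gene, at chr15:81580612-81595861, had 1082, 1247 and 1572 in the continuous IL-10 group and 914, 1007 and 1387 in the late IL-10 group. It had 941, 1070 and 2250 with LPS and 944, 909 and 2075 in untreated cells. The LPS and untreated libraries of the same number lay close together at Ep300, and replicate 3 was the highest in all groups.

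Of 28 genes of LPS sensing, 4 or 14.3% did, and among strong genes, as given above, the share was close to that of all genes. Among them were Chuk, a kinase gene of the IKK complex, Map3k7, the TAK1 kinase gene, and Irf3, a factor gene of interferon induction. At Map3k7 the values were 211, 484 and 547 with continuous IL-10, 382, 285 and 510 with late IL-10, 317, 355 and 878 with LPS, and 329, 203 and 679 in untreated cells. Another region over Map3k7 was a moving one. Of 25 macrophage transcription factor genes, 3 lay over a constitutive strong region, the oxidative stress factor gene Nfe2l2, the ETS factor gene Elf1 and Tfe3, a lysosomal gene regulator, and 8 or 32% lay over a moving region, Nfe2l2 among them. The constitutive region over Nfe2l2, at chr2:75692659-75707801, had 1383, 1334 and 1410 with continuous IL-10, 1175, 1824 and 1173 with late IL-10, 988, 1462 and 1980 with LPS, and 1148, 1737 and 1830 in untreated cells.

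Among 35 macrophage identity genes only Grn lay over a constitutive strong region, and 6 or 17.1% lay over a moving region. None of 21 NF-kB pathway genes, 32 interferon response genes and 22 IL-10 pathway genes did, while 6, 22 and 7 of them lay over a moving region, or 28.6%, 68.75% and 31.8%. In untreated cells, 20 of the 21 NF-kB genes and 21 of the 22 IL-10 pathway genes were strong, counted over regions of any width. Of the 32 interferon response genes, 17 were strong there. Of 30 inflammatory cytokine genes, 1 did, Il27, through a region without an Il27 promoter window, and 5 or 16.7% lay over a moving region. Of all 1614 genes over a constitutive strong region, 170 also lay over a moving region.

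The zeros for NF-kB, interferon and IL-10 pathway genes were the same when the regions were chosen after 3 other scalings or without replicate 3. The other shares moved. Without replicate 3, 10 of 44 splicing, 13 of 79 ribosomal protein and 7 of 57 respiratory chain genes were left, or 22.7%, 16.5% and 12.3%, against 4.90% of all protein-coding genes. Acetylation genes, with 8 of 26 or 30.8%, then had the highest share of any list. With libraries centred on the median of all regions, splicing genes led with 27.3%, and respiratory chain genes at 19.3% and acetylation genes at 19.2% stood above ribosomal protein genes at 17.7%. Il27 was lost without replicate 3 and with centring on the median of all regions.

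**Figure D3:**
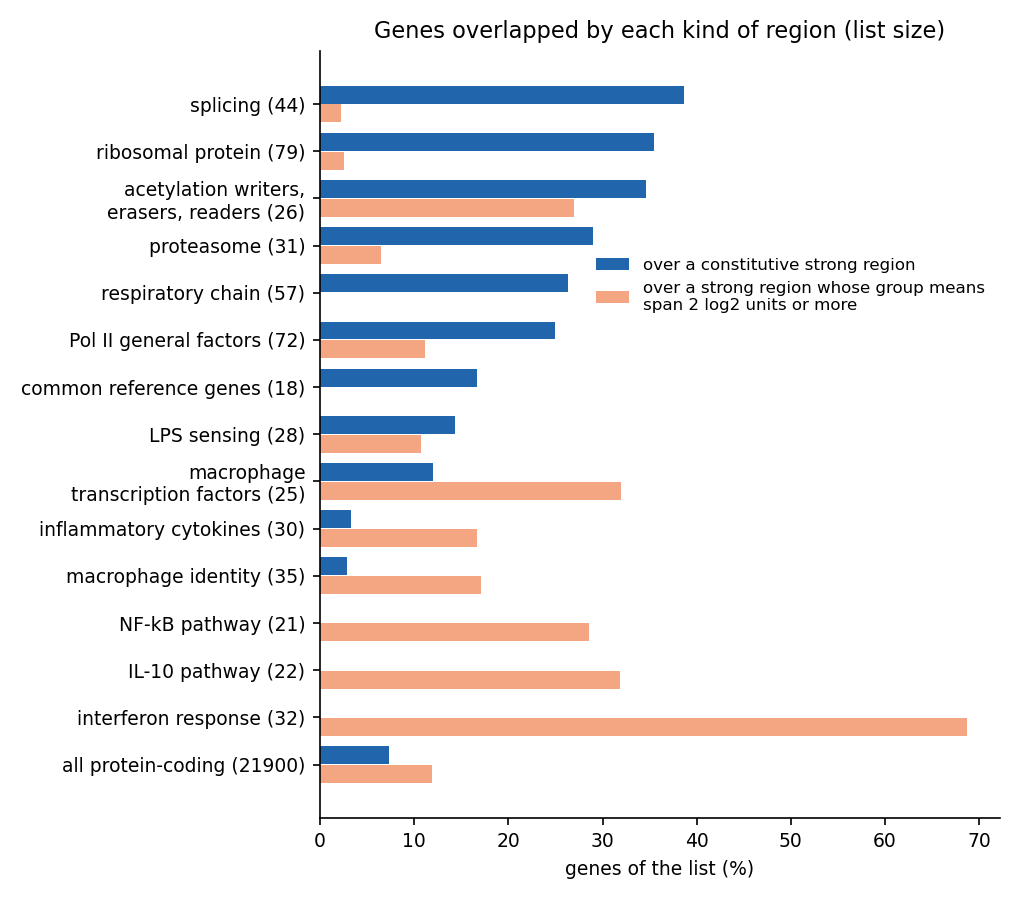
Bars give the percent of each gene list that overlaps a constitutive strong region (blue) or a moving region (orange), with the number of genes of each list in parentheses. Splicing, ribosomal protein and acetylation genes lead in blue, at 38.6%, 35.4% and 34.6%, and interferon response genes lead in orange, at 22 of 32.

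Group means were close, but libraries were not. The SD between libraries of a group, pooled over groups on the log2 scale, had a median of 0.50 in constitutive strong regions, and it was above the distance between group means in 1014 of 1290, or 78.6%. The ratio of the highest to the lowest of 12 libraries had a median of 2.77 and ran between 1.30 and 9.89. It was below 2 in 207 regions, or 16.05%, and at 4 or more in 198, or 15.3%. The name constitutive therefore stands for close group means, not for equal libraries, and differences between groups were not tested in these regions because the group means chose them. Of the 4 group means, the highest was that of continuous IL-10 in 393 regions, late IL-10 in 157, LPS in 440 and untreated cells in 300. The lowest was that of continuous IL-10 in 193, late IL-10 in 532, LPS in 169 and untreated cells in 396.

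Replicate 3 stood apart. Its median value over constitutive strong regions was 498 with continuous IL-10, 474 with late IL-10, 692 with LPS and 640 in untreated cells. Replicates 1 and 2 had 363 and 418 with continuous IL-10, 354 and 363 with late IL-10, 311 and 369 with LPS, and 342 and 312 in untreated cells. Replicate 3 was the highest of its group in 65.8% of regions with continuous IL-10, 61.6% with late IL-10, 82.7% with LPS and 92.5% in untreated cells. It lay above the mean of replicates 1 and 2 by a median of 0.30, 0.33, 0.98 and 0.94 log2 units in those groups. Replicate 3 also had the most reads recovered in each group, at 10035619, 11083204, 20884182 and 26922552.

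Replicate number was tested across all regions with limma's moderated F test, with group in the model. It was called at an adjusted p under 0.05 in 608 of 1290 constitutive strong regions, or 47.1%, against 31% of all regions tested. Near-steady regions, which are strong in the same way, were called in 773 of 1835 cases, or 42.1%. Replicate 3 was above replicate 1 in 583 of the 608 constitutive strong and in 682 of the 773 near-steady regions. The minimum level was set on the same 12 libraries, so these counts are a description and nothing particular to constitutive strong regions is read from them. First by this test stood Nsd1, the gene of an H3K36 methyltransferase, with 403, 945 and 1478 with continuous IL-10, 416, 387 and 1454 with late IL-10, 370, 580 and 2158 with LPS, and 611, 419 and 1591 in untreated cells. There replicate 3 was the highest library of every group and exceeded replicate 1 by 1.90 log2 units. Eif1b, a translation initiation gene, Tusc1, Arl8a with Ptpn7, and Tcf12, an E protein gene, came next, with replicate 3 above replicate 1 by 1.55, 1.88, 1.37 and 1.69 log2 units.

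The count depended on scaling and on single libraries. With each library centred on the median of all strong regions, 262 of 1290 were called, or 20.3%, against 30.5% of all regions. Without LPS replicate 3 the count was 80, without late IL-10 replicate 3 it was 348, without untreated replicate 3 it was 381 and without LPS replicate 2 it was 399. Since replicate 3 had the most recovered reads in each group, replicate number, recovered reads and scaling cannot be told apart here.

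**Figure D4:**
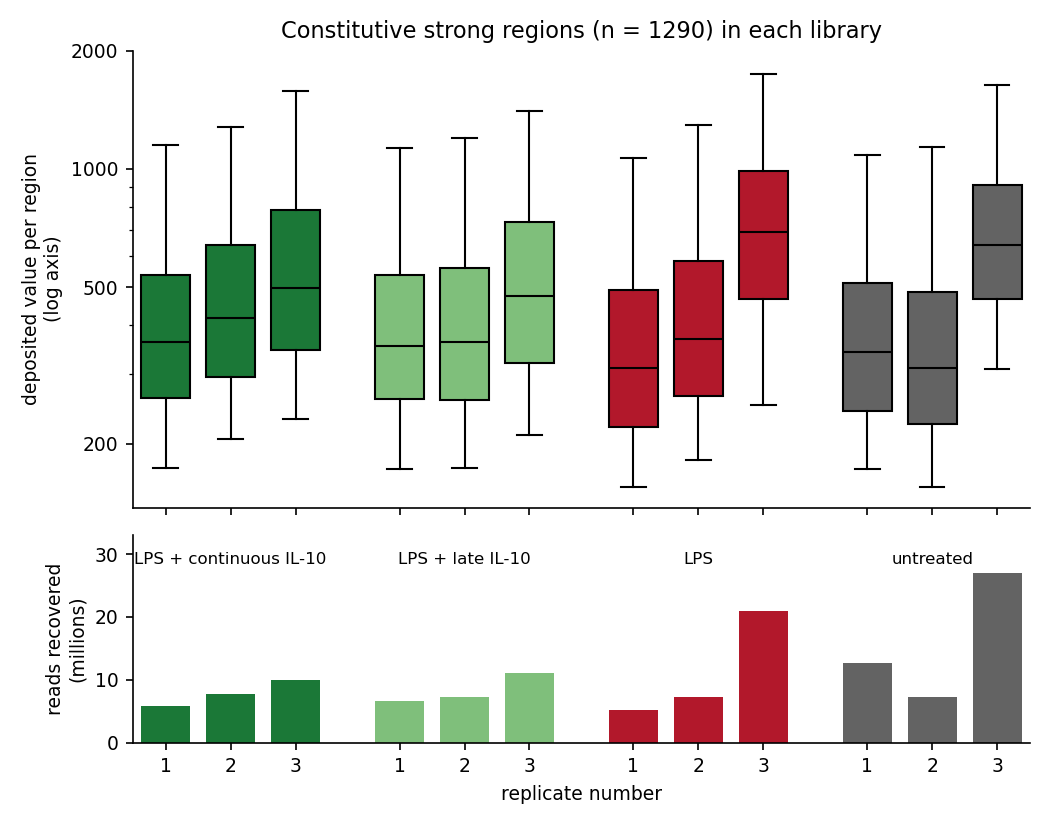
The upper panel shows the deposited values of the 1290 constitutive strong regions in each library on a log axis (line, median; box, quartiles; whiskers, 5th to 95th percentile), and the lower panel the number of reads recovered per library. Replicate 3 has the highest median and the most reads in each group, with medians of 692 with LPS and 640 in untreated cells.

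Regions next to the constitutive strong ones had failed at least 1 of the conditions, and differences between groups were tested there. Within 50 kb, edge to edge, lay 4547 such regions, of which 4132 were tested. The share over all regions, given beside each count, includes the 1290 constitutive strong regions, none of which was called. The share in other regions beyond 50 kb is therefore given as well. With LPS against untreated cells, limma called 533 of them higher, or 12.9% against 16.5% of all regions, and 739 lower, or 17.9% against 17.9%. Beyond 50 kb the shares were 17.7% and 18.7%. With each library centred on the median of all regions these counts were 638 and 569, and edgeR on the recovered reads called 618 and 570, so which direction was commoner depended on the method. Without untreated replicate 1, 487 were lower. A neighbour called higher lay near 428 of 1290 constitutive strong regions, one called lower near 552, both kinds near 165 and neither near 475, or 36.8%. The same was not counted around other regions, so nothing particular to constitutive strong regions is read from these counts.

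By distance, the share called higher with LPS was 11.6% under 5 kb, 12.9% from 5 to 20 kb, 13.3% from 20 to 50 kb and 18.3% at 200 kb or more. The share called lower was 13.8% under 5 kb and 18.7% at 200 kb or more. The median mean level was 4.70 log2 units in the nearest and 4.72 in the farthest class, and between 5.00 and 5.35 in the classes between. Under 5 kb, 68 of 586 regions tested were higher with LPS and 81 were lower, so called regions lay directly beside constitutive strong ones. Differences with distance were not tested.

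With continuous IL-10 against LPS, 116 neighbours were higher, or 2.81% against 3.28% of all regions, and 121 lower, or 2.93% against 3.24%. These shares were 3.48% and 3.41% beyond 50 kb. With the replicate number as a block the counts were 272 and 318, against 7.42% and 8.98% of all regions. Centring on strong regions gave 106 higher and 69 lower. Leaving out LPS replicate 3 gave 203 and 264, and leaving out any other continuous IL-10 or LPS library gave between 60 and 77 higher and between 45 and 78 lower. With late IL-10 against LPS, 105 were higher, or 2.54% against 3.14%, and 10 lower, or 0.242% against 0.396%. Beyond 50 kb these were 3.35% and 0.433%. With the block these were 206 and 58, against 6.17% and 1.92% of all regions. Without late IL-10 replicate 1 or 2, 55 and 61 were higher. The count of lower ones ran between 2 and 6 without late IL-10 replicate 1 or 2 or LPS replicate 1 or 2, and was 32 without late IL-10 replicate 3.

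Il27 shows a constitutive strong region beside one that changed. Il27 encodes a subunit of the cytokine IL-27. The constitutive region over Il27, Apobr and Cln3 held promoter windows of Apobr and Cln3 and none of Il27. At chr7:126579157-126589517, it had 1088, 1448 and 1286 in the continuous IL-10 group and 1058, 1688 and 1275 in the late IL-10 group. It had 1011, 1650 and 1345 with LPS and 794, 949 and 1426 in untreated cells. The next region, 1402 bp away at chr7:126590919-126613882 and also over Il27, had 2055, 2092 and 1805 in the continuous IL-10 group and 5280, 4221 and 3324 in the late IL-10 group. It had 4620, 4857 and 2684 with LPS and 347, 279 and 368 in untreated cells. Every LPS library was above every untreated one, and the rise of 3.57 log2 units was called (SE 0.28, adjusted p = 2.48e-06 from limma). All 3 continuous IL-10 libraries lay below all 3 LPS libraries, by 0.99 log2 units, with an adjusted p of 0.0517 from limma and of 0.00908 with the replicate number as a block. Late IL-10 and LPS libraries overlapped.

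Nxpe5 and Taf6 form a second pair, 31009 bp apart. The constitutive region over Cnpy4 and Taf6, a TFIID subunit gene, at chr5:138186181-138189091, had 332, 352 and 386 with continuous IL-10, 245, 516 and 282 with late IL-10, 199, 452 and 346 with LPS, and 363, 366 and 467 in untreated cells. The region over Nxpe5 at chr5:138220100-138232943 had 341, 277 and 321 with continuous IL-10, 291, 503 and 288 with late IL-10, and 1350, 1488 and 1180 in untreated cells. With LPS all 3 libraries were at 1 read, the lowest value that each library holds. Against a floor of 3 reads per library, the Nxpe5 region was at least 76.1-fold higher with continuous IL-10 than with LPS (adjusted p = 5.24e-06 from limma), at least 87.7-fold higher with late IL-10 than with LPS (adjusted p = 1.98e-06), and at least 326-fold lower with LPS than in untreated cells (adjusted p = 5.63e-08). A region at 1 read is not shown to be free of H3K27ac, and bounds of this kind describe the deposited values, not H3K27ac itself.

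Igsf6 and Mettl9 form another pair. The constitutive region over both, at chr7:121068270-121081857, had 3224, 2638 and 2187 with continuous IL-10, 1851, 3428 and 1821 with late IL-10, 1970, 3492 and 1533 with LPS, and 1598, 2371 and 2320 in untreated cells. A weaker region over Mettl9, 4677 bp away at chr7:121057743-121063593, had 210, 374 and 240 with late IL-10, and all 3 LPS libraries were at 1 read. It was at least 66.8-fold higher with late IL-10 than with LPS (adjusted p = 2.44e-05 from limma).

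**Figure D5:**
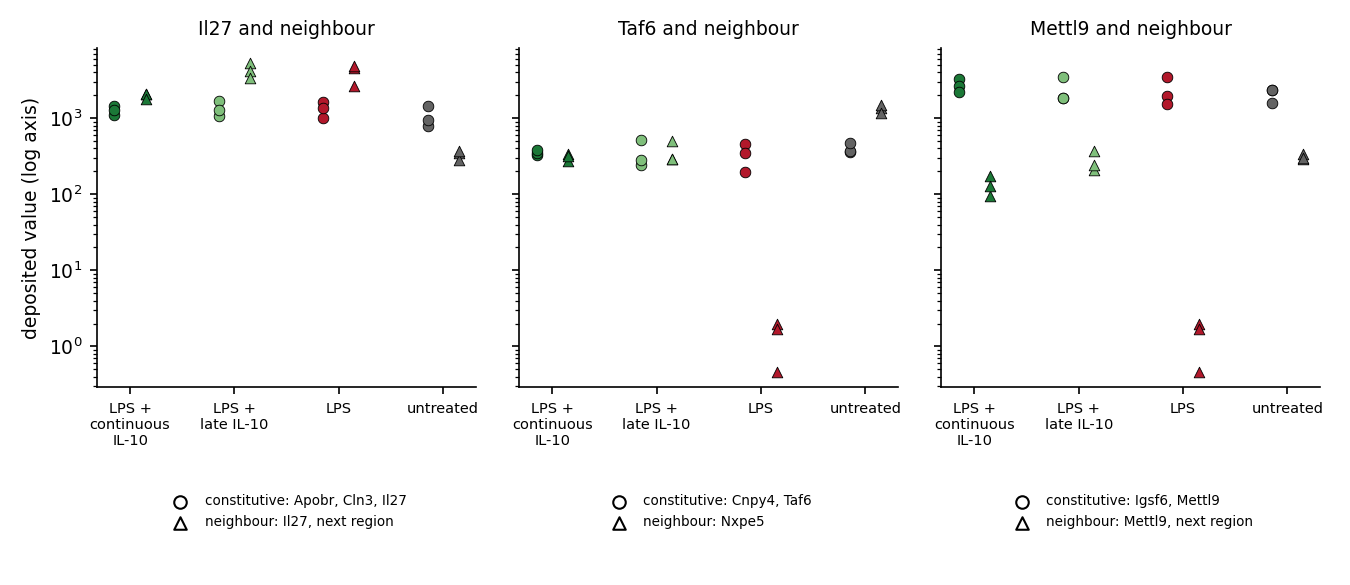
Deposited values on a log axis in each library for 3 constitutive strong regions (circles) and a neighbouring region each (triangles), by group. Circles overlap between all groups. The Il27 neighbour is higher with LPS, at 4620, 4857 and 2684, than in untreated cells, and the neighbours over Nxpe5 and Mettl9 are at 1 read in the LPS libraries.

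Other called neighbours with large differences were spread over many loci. With LPS against untreated cells, the region over Kdm5a, an H3K4 demethylase gene, at chr6:120398431-120419020, had 2347, 1642 and 162, against 1 read in all 3 untreated libraries, and was at least 580-fold higher (adjusted p = 7.16e-04 from limma). A constitutive strong region covers another stretch of Kdm5a with Ccdc77, 32110 bp away. The region over Usp49, a deubiquitinase gene, near Ccnd3 and Bysl, was at least 241-fold lower with LPS. At C1qtnf1 near Cant1 the LPS libraries had 1 read, 1 read and a value of 364, against 3904, 3511 and 5464 in untreated cells, and the fall was called (adjusted p = 0.00847 from limma). Its size rests on the libraries at 1 read, with a log2 change of -8.21 (SE 2.10) with a pseudocount of 1, -6.42 with a pseudocount of 16 and -5.00 from edgeR. At Rbms1, an RNA-binding protein gene with a constitutive strong region of its own 47889 bp away, the neighbour had 1 read, a value of 15.1 and 1 read with LPS, against 1467, 1373 and 819 in untreated cells (adjusted p = 6.92e-04 from limma). The log2 change was -8.16 with a pseudocount of 1 and -5.84 with a pseudocount of 16. A region without a gene at chr3:116040246-116056419, near Extl2, was at least 319-fold higher with LPS by group means, with LPS libraries at 1188, 998 and 100.2.

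With continuous IL-10 against LPS, the region over Tom1l2, 8822 bp from the constitutive strong region of Srebf1, the gene of a lipid synthesis regulator, was at 1 read in all 3 continuous IL-10 libraries, against 758, 504 and 204 with LPS, at least 124-fold lower (adjusted p = 2.35e-04 from limma). By group means, those over Cdyl2 and at chr17:15575941-15591294 near Pdcd2 were at least 102-fold and 120-fold lower. The one at chr4:135358391-135367116 near Srrm1 was at least 84.6-fold lower. Their LPS libraries were uneven, at 655, 440 and 116 for Cdyl2, 880, 397 and 145 near Pdcd2, and 604, 272 and 124 near Srrm1. The region near Extl2 had a value of 23.6 and 1 read in each of the other continuous IL-10 libraries, against 1188, 998 and 100.2 with LPS, with a log2 change of -6.68 with a pseudocount of 1 and -4.53 with a pseudocount of 16. With late IL-10 against LPS, the region over Sphk1, a sphingosine kinase gene near Prpsap1, had 402, 297 and 197 against 1 read in all LPS libraries, at least 72.6-fold higher (adjusted p = 2.64e-04 from limma). The region over Pam, near a constitutive strong region of the same gene, was at least 57.3-fold higher. The region at Slf2 had 164, 278 and 76.2 with late IL-10, against 1 read, a value of 6.72 and 1 read with LPS, with a log2 change of 5.56 with a pseudocount of 1 and 3.17 with a pseudocount of 16. Of these neighbours, the ones over Nxpe5 and near Extl2 appear in more than 1 comparison, and the comparisons share the LPS libraries.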

How the data were processed

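H3K27ac ChIP libraries of 12 macrophage samples, 3 for each of 4 groups, were analysed, and an input library was not used here. The submitters' processing notes name the mm10 build and 4 tools, Bowtie2, DiffBind, MACS2 and Trim Galore, without role, order or version. The authors deposited a normalized signal value per library for each of 40691 regions. In each library 100% of these values were whole multiples of the smallest, within a tolerance of 0.0001, so whole reads could be recovered. No source used here states whether input reads were taken off, so reads recovered are not sequencing depth. The lowest possible value, 1 read, held for 19.7% to 29.9% of regions per library.

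Tests used limma 3.58.1 in R 4.3.3 with robust moderation and an intensity trend, fitting group to log2(value + 1) of 12 libraries. The scale understates changes of weak regions. The lowest 10 percent of regions by mean were left out and 36621 tested, with Benjamini-Hochberg adjusted p under 0.05 as the threshold. edgeR 4.0.16 on recovered reads was an alternative. Exact permutation of 3 against 3 libraries gives no p below 0.1 and was not used. Folds against libraries at 1 read compare group means and are lower bounds against 3 reads per region and library. A single library can differ by less than the bound.

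Per the labels, replicates came from 3 independent macrophage pools. Deviations from group means correlated between 0.0993 and 0.712 over 18 pairs of libraries with the same number, above 0.1 in 17 of them and in every pair of compared groups, and 11 of 12 libraries were highest with their own number. The numbers were therefore taken to pair the libraries. The F test of replicate number came from the fit with number and group.

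Regions were matched to protein-coding genes, microRNA hairpins and promoter windows of RefSeq on GRCm38.p6, the same build as mm10. A gene counts for every region it overlaps, so neighbouring genes share regions. Windows existed for 17492 of 21900 genes. Of 570 listed genes in 20 lists, 566 matched. The regions, lists and tests were chosen with earlier results of these data known. Regions named are the 10 with the highest mean, the 5 with the smallest distance between group means, the 3 nearest each limit on either side, up to 4 list genes per list, the 5 smallest replicate p, and per comparison the 6 called neighbours with the largest change and no overlap between groups. Some of the regions this rule names are not reported here. Other genes named were chosen after their values were seen.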

Additional observations from a re-analysis of the deposited data

How the results depend on the processing

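The number of constitutive strong regions depended most on its limits. It was 610 with a minimum log2 value of 8, 285 with a distance below 0.25 log2 units, 3125 with a distance below 1 and 851 with libraries centred on the median of all regions tested. It was 875 to 1435 when 1 library was left out. Other settings, among them TMM factors with 1289 regions, stayed within 1.5 times. Of the 1290, 643 were chosen again after centring on the median, 1121 with TMM factors, 685 without untreated replicate 3 and between 796 and 1231 without any other single library. Under the 6 alternatives run for it, the share of regions over a promoter window stayed between 76.6% and 80.03%. Centring on the median shifted every log2 change with LPS by 0.25.

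Counts of called neighbours scaled with the distance allowed. Within 10 kb and 100 kb, LPS gave 131 and 977 higher and 165 and 1254 lower, continuous IL-10 gave 30 and 211 higher and 26 and 220 lower, and late IL-10 gave 19 and 196 higher and 2 and 17 lower. With the replicate block, LPS gave 770 higher and 1087 lower. Continuous IL-10 with this block gave 272 higher and 318 lower, and late IL-10 gave 206 and 58. edgeR gave 5 lower with late IL-10. Leaving out 1 library gave 386 to 666 higher and 487 to 901 lower with LPS, 60 to 203 and 45 to 264 with continuous IL-10, and 55 to 103 and 2 to 32 with late IL-10. The replicate number count was 80 to 606. The cause of these moves was not tested, other than fewer libraries or regions by construction.

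Centring on strong regions and leaving out replicate 3 of all groups were chosen after seeing the data. The first gave 69 lower in the continuous IL-10 group and 262 regions by replicate number, and the second 214 higher and 314 lower with continuous IL-10 and 32 lower in the late IL-10 group. The replicate block changed no call of a named neighbour other than that of the Il27 region with continuous IL-10. Of 260 values of the 20 named neighbour results under all alternatives run, 255 kept direction and side of the threshold, and 5 of the Il27 region with continuous IL-10 passed it. Counting error is largest in weak regions, and over all 40691 regions the median was 18 to 89 reads recovered per library.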

Other observations

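Constitutive strong regions away from genes were few. Of 1290, 59 overlapped no protein-coding gene, and 12 of these lay within 5000 bp of one. The strongest, chosen after their values were seen, lay at chr1:181241771-181261101, chr14:14629126-14648273 and chr7:73614461-73621838. The region on chromosome 7 stood at 181 per kb, close to the Mir142 region, and had 1765, 1075 and 1220 with continuous IL-10, 1092, 1399 and 1143 with late IL-10, 1061, 1383 and 1724 with LPS, and 1088, 1095 and 2002 in untreated cells. The groups overlapped there.

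Chromosomes differed in the share of their regions that were constitutive and strong. It was highest on chromosome 11, which holds Grn, Mir142 and Mir22, with 109 of 2697 regions or 4.04%, and 3.88% on chromosome 4. It was 2.01% on chromosome 13 and 1.61% on chromosome X, where 20 of 1242 regions, among them those of Hprt and Tfe3, met the conditions.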
